A study of Mus musculus with 2 samples.

Results

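The genes of the major histocompatibility complex (MHC) and of antigen presentation were described in mouse lung after deletion of Foxf1 from endothelial cells. Members were taken by name: every symbol that begins with H2-, the prefix of the mouse MHC, and 9 partner genes, B2m, Tap1, Tap2, Tapbp, Cd74, Ciita, Psmb8, Psmb9 and Nlrc5. The rule found 51 of the 22072 genes in the deposited tables, of which 30 are class I heavy chain genes, 10 are class II genes, 9 are the processing and regulator genes and 2, H2-Ke2 and H2-Ke6, carry the H2- prefix without a role in antigen presentation. The genes of 47 members lie on chromosome 17. A mean level of 1 FPKM (fragments scaled to transcript length and library size) over the libraries was reached by 36 members, 17 of class I, 8 of class II, all 9 processing and regulator genes and both others.

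Whole lungs were compared between 2 genotypes on the C57/BL6 background. The control pool came from Foxf1 fl/fl mice, which carry loxP-flanked alleles of Foxf1 and no Cre. The knockout pool came from Pdgfb-iCreER Foxf1 fl/fl mice, in which the same alleles are joined by a tamoxifen-inducible Cre driven by the Pdgfb promoter, active in endothelial cells. Each genotype is 1 library made from the pooled RNA of several mice, so no difference has a replicate check, and no test was made. An effect of the Cre itself cannot be told apart from an effect of Foxf1 loss. The sources used here do not give the number, age or sex of the mice or the tamoxifen schedule. The forkhead factor gene Foxf1, listed as Foxf1a, was at 72.1 FPKM in control lung and 15.7 in knockout lung, 4.59-fold lower with a 95% counting interval of 3.96 to 5.33. Depth on transcripts was approximately 13.2 M reads in the control pool and 10.4 M in the knockout pool. Lung markers were abundant in both, the alveolar type 2 gene Sftpc at 15925 and 13793 FPKM and the endothelial gene Pecam1 at 241 and 237.

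MHC class I molecules are heavy chains paired with beta-2 microglobulin that show peptides from the cytosol to CD8 T cells and are made by nearly all nucleated cells. Their peptides are cut by the proteasome, carried into the endoplasmic reticulum by the transporter Tap1-Tap2 and loaded with the help of tapasin. MHC class II molecules are alpha-beta pairs that show endosomal peptides to CD4 T cells. They are made mainly by dendritic cells, B cells and macrophages, and in lung also by alveolar type 2 cells. The invariant chain Cd74 guards new class II pairs until proteases degrade it, and H2-DM then exchanges its last fragment for peptide.

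Class II promoters share an X box, bound by the RFX complex, and a Y box, bound by the NF-Y factor, and the activator Ciita docks on the proteins assembled there. Promoter windows of 300 bases (250 before to 50 after the start site, RefSeq, GRCm38.p6) were matched to 35 of the 51 members. Cd74 was left out of the motif search, so the processing and regulator counts below do not cover it. Whether its promoter holds any of these motifs was not tested. The X box was searched on both strands as AG, 2 free bases, AC, 1 free base and GATG, and was found in the windows of 4 of the 8 class II genes that have one, H2-DMb1, H2-Eb1, H2-Eb2 and H2-Oa. It was found in 4 of 21 class I windows, those of H2-M10.1, H2-M10.2, H2-M10.5 and H2-M10.6, in 0 of 5 processing and regulator windows and in 0.968% of all 32851 windows. The 4 class II stretches are shown because they place the genes whose levels follow side by side, with capitals marking the X box and, downstream of it where present, the Y box ATTGG.
H2-Eb1, chr17:34305772-34305821, plus strand: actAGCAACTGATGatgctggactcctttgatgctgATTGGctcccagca
H2-Eb2, chr17:34325539-34325588, plus strand: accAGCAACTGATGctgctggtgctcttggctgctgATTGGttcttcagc
H2-DMb1, chr17:34153093-34153142, plus strand: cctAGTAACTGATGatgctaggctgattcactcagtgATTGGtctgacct
H2-Oa, chr17:34092235-34092284, plus strand: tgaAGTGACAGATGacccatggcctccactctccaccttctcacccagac
In H2-Eb1 and H2-Eb2 the boxes were 22 bases apart and in H2-DMb1 23, while the stretch of H2-Oa held the X box alone. No match overlapped another in these stretches. The short Y box, searched on both strands, was in all 8 class II windows, 18 of 21 class I windows and 4 of 5 processing and regulator windows, but also in 37.4% of all windows. The interferon response element, searched on both strands as a pair of GAAA blocks 2 bases apart, was in the windows of H2-T22, H2-T23 and B2m and in 3.44% of all windows. A match describes the letters only. The 4 class II genes with the X box did not share a level or a ratio: H2-Eb1 was the member of this set with the lowest ratio and the highest level, and H2-Eb2 lay under 1 FPKM.

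Across all members the pools were close. On the log2(FPKM + 1) scale, where differences of genes with low values are understated, 1 of the 36 members at a mean of 1 FPKM or more was at least 1.5-fold higher in knockout lung, H2-T9, and 0 were at least 1.5-fold lower. Of the 12929 genes at this level, 9.41% were at least 1.5-fold higher and 4.63% at least 1.5-fold lower. The 95% counting interval of the plain FPKM ratio, knockout over control, lay above 1 for 11 members (30.6%), below 1 for 6 (16.7%) and held 1 for 19. The same intervals lay above 1 for 33.3% and below 1 for 21.8% of the 12929 genes, so the shares of members lay near the background. Such shares depend on read number, for which the members and these genes were not matched. These intervals cover counting error only, and not differences between mice, pools or library preparations, nor the division of reads among near-identical genes. Overlap of such intervals does not show that the values are equal. The median log2 difference was 0.05 over these 12929 genes, and 56.8% of them lay above equality.

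**Figure D1:**
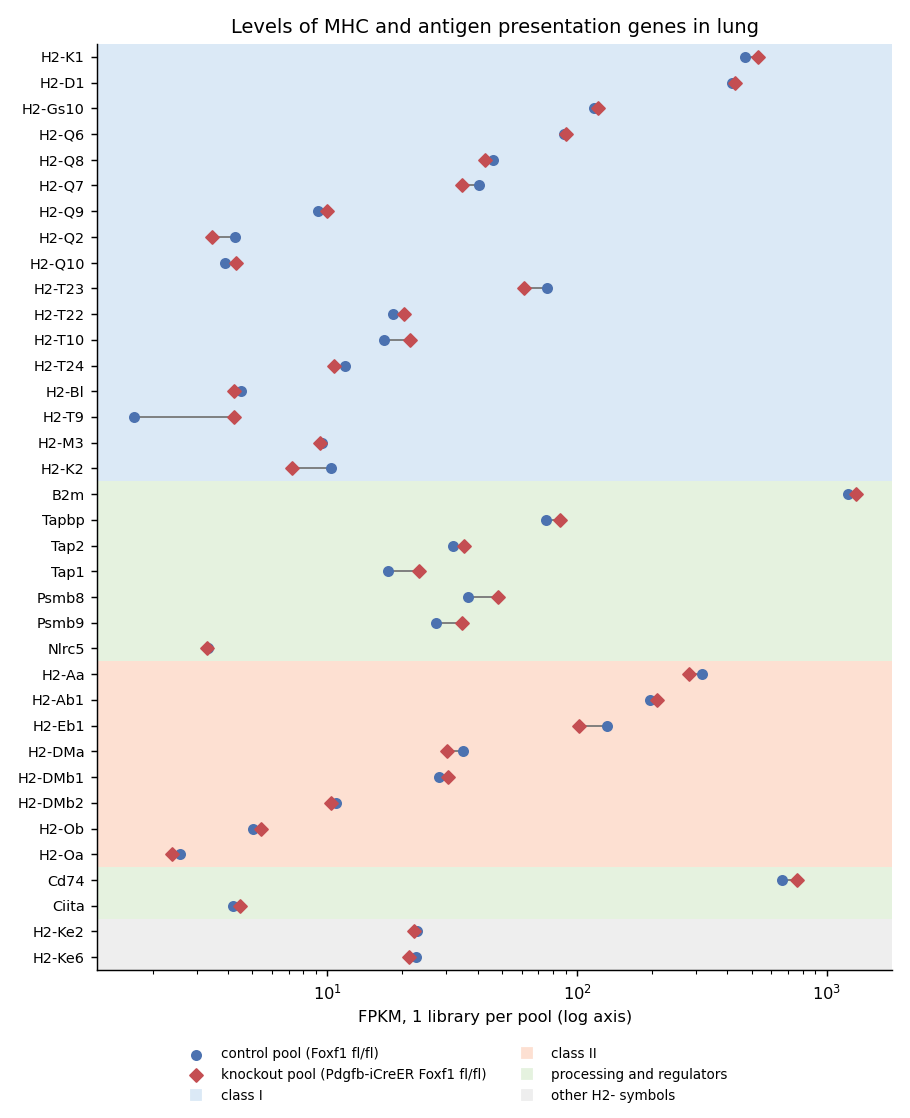
FPKM of the 36 members with a mean of 1 or more, on a log axis, with a circle for the control pool and a diamond for the knockout pool (1 library each) joined by a line. Levels run from 1.68 FPKM (H2-T9, control) to 1312 FPKM (B2m, knockout), and the longest line belongs to H2-T9.

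Among class I heavy chains, the classical genes dominated both libraries. H2-K1 (mm9, chr17:34132957-34137278) was at 468 FPKM in control lung and 530 in knockout lung, a ratio of 1.13 (1.10 to 1.16). Its rank among all genes was 53 in the control and 45 in the knockout. H2-D1 (chr17:35400039-35404442), the other classical chain of this strain, was at 419 and 430 FPKM, and its interval held 1 (0.999 to 1.05). The K1 level was thus higher in the knockout pool by more than counting error and the D1 level was not. Within a library the level ratio of H2-K1 to H2-D1 does not depend on how libraries are scaled. It was 1.12 (1.09 to 1.15) in the control and 1.23 (1.20 to 1.27) in the knockout. Together they made up 65.8% of the summed class I FPKM in the control and 68.3% in the knockout.

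The Q genes encode non-classical class I chains, several of them membrane anchored by lipid or secreted. The most abundant, H2-Gs10 (named H2-Q4 in GENCODE), was at 117 and 121 FPKM, with an interval of 0.984 to 1.09. H2-Q6 was at 88.4 and 89.9 FPKM, and H2-Q8 at 45.9 and 42.9. H2-Q7, a source of the Qa-2 antigen, was at 40.6 and 34.6 FPKM, 1.17-fold lower in the knockout pool (1.05 to 1.32). It was the only one of the 7 Q genes at a mean of 1 FPKM or more whose interval left out 1 as deposited, and that of H2-Q8 also lay below 1 under 2 of 3 other scalings. H2-Q9, also a Qa-2 gene, was at 9.17 and 9.97 FPKM, and its record lies within that of H2-Q7 in mm9 (chr17:35576112-35580715 inside chr17:35576100-35580718). It is the only member record with a status of LOWDATA. Reads of both therefore cannot be kept apart, and the pair summed to 49.7 and 44.5 FPKM, 1.12-fold lower (1.01 to 1.23). Summed over H2-Q6, H2-Q7, H2-Q8 and H2-Q9 the level was 184 and 177 FPKM, and the interval of that ratio held 1 (0.914 to 1.01). The least abundant of these 7 were H2-Q2 at 4.28 and 3.46 FPKM and H2-Q10, a secreted chain known from liver, at 3.88 and 4.31. The intervals of both held 1. The 8 Q genes together were at 310 and 307 FPKM, with an interval of 0.955 to 1.03.

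The T genes held both the member furthest below and the member furthest above its control among protein-coding class I genes at a mean of 1 FPKM or more. H2-T23 encodes Qa-1, which shows leader peptides of other class I chains to the Cd94-NKG2 receptors of natural killer cells. It was at 75.9 FPKM in control lung and 61.1 in knockout lung, 1.24-fold lower (1.15 to 1.34). H2-T10 and H2-T22 encode ligands of some gamma-delta T cell receptors. H2-T10 was at 16.9 and 21.4 FPKM, a ratio of 1.26 (1.11 to 1.45), and H2-T22 at 18.4 and 20.2, with an interval of 0.968 to 1.25. H2-T9, a close relative, was at 1.68 and 4.24 FPKM, a ratio of 2.52 (1.77 to 3.74) that rests on about 45 and 89 reads. The H2-T9 record (chr17:36175354-36179637) starts at the same base as the H2-T22 record and ends 10 bases before it, so reads of this locus had to be divided between them. Summed over H2-T9 and H2-T22 the level was 20.1 and 24.5 FPKM, a ratio of 1.22 (1.08 to 1.37), and with H2-T10 added it was 37.0 and 45.9, a ratio of 1.24 (1.14 to 1.35). H2-T24 was at 11.7 and 10.6 FPKM and H2-Bl at 4.52 and 4.24, and the intervals of both held 1.

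The remaining class I genes were of lower abundance. H2-M3, which shows formylated bacterial peptides, was at 9.55 and 9.32 FPKM. H2-K2, a non-coding record near H2-K1, was at 10.4 and 7.22 FPKM, 1.44-fold lower (1.15 to 1.80). The other 13 class I genes lay under a mean of 1 FPKM, the highest of them H2-Q1 with a mean of 0.546. Of these 13, 4 genes, H2-M1, H2-M9, H2-M10.1 and H2-M11, were listed at 0 in both pools, where 3 reads would have given 0.131 to 0.181 FPKM in the control and 0.170 to 0.233 in the knockout. Over the 17 class I genes at 1 FPKM or more the median log2 difference was 0.02 (-0.47 to 0.97), with 9 above equality and 8 below. Its sign depends on the scaling, at -0.04 when libraries are scaled to the median ratio of the 12929 genes and -0.03 when scaled to the upper quartile. Summed class I FPKM was 1347 in the control and 1406 in the knockout, a ratio of 1.04 (1.03 to 1.06), and 0.999 and 1.004 under those scalings. For the class as a whole, no direction was therefore kept across scalings.

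Shared sequence limits single class I values. In the GENCODE M21 transcripts, which could be matched to 47 of 51 members, 40.2% of the 50-base stretches of H2-Q7, 36.8% of H2-Q6, 44.7% of H2-T22 and 28.8% of H2-T23 also occur in other genes. For H2-T22 most of this is with H2-T10 (37.9%). The H2-Q7 share is that of record NM_010394, which held 0.0027% of H2-Q7 FPKM in the control, where NM_001198561 held 99.1%. The H2-Q9 record was matched to GENCODE H2-Q7, so stretches common to the H2-Q7 and H2-Q9 records are not counted. The share was 8.79% for H2-K1 and 14.3% for H2-D1, and 0% for B2m, Cd74, H2-Aa, H2-Ab1, H2-Eb1, H2-DMa, Psmb8 and Psmb9. H2-T9, H2-T10, H2-Q8 and H2-Ea-ps had no matched transcript.

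**Figure D2:**
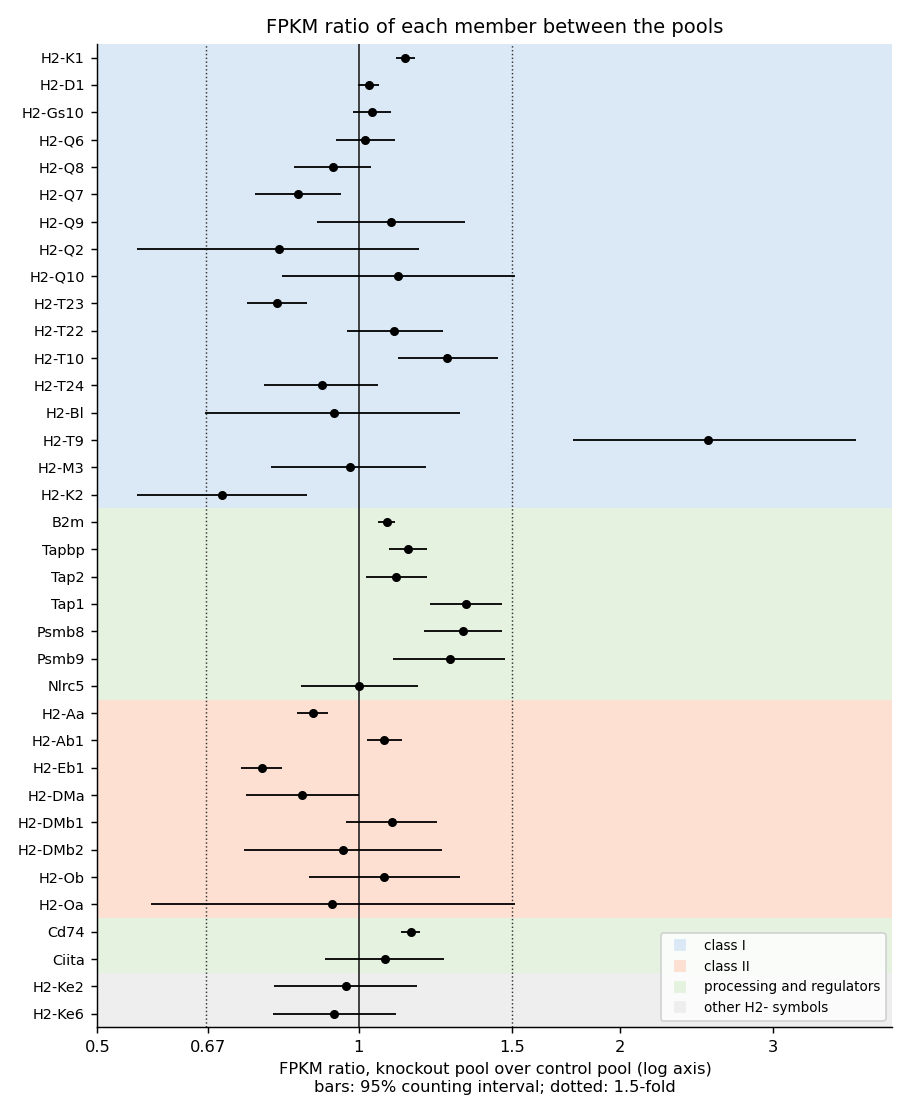
FPKM ratio of knockout over control pool for each of the 36 members on a log axis, with bars for the 95% counting interval and dotted lines at 1.5-fold in either direction. H2-T9 at 2.52 is the only point beyond a dotted line, and 7 of the 9 processing and regulator genes have intervals above 1 (6 under 2 of the 3 other scalings).

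The genes that supply class I with its light chain and peptides were mostly a little higher in the knockout pool. B2m, the light chain, was the most abundant member at 1218 FPKM in the control and 1312 in the knockout, a ratio of 1.08 (1.05 to 1.10). The B2m ratio was 1.03 with scaling to the median ratio and 1.04 with scaling to the upper quartile, with both intervals above 1. Summed class I heavy chain FPKM was 1.11 (1.09 to 1.13) times that of B2m in the control pool and 1.07 (1.05 to 1.09) times in the knockout, intervals that overlap. For H2-K1 and H2-D1 alone the ratio to B2m was 0.728 and 0.731. The ratio to B2m was thus a little lower in the knockout pool for all heavy chains summed, and nearly the same for H2-K1 with H2-D1. Overlapping intervals do not show equal ratios.

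Tap1 and Psmb9 are divergent neighbours, a subunit of the peptide transporter and a subunit of the immunoproteasome that replaces the constitutive Psmb6. In RefSeq (GRCm38.p6) 225 bases lie between their start sites, and the stretch between them is shown because a single sequence serves both genes, with the Y box, here on the minus strand, in capitals.
Tap1 and Psmb9, chr17:34187331-34187555, plus strand: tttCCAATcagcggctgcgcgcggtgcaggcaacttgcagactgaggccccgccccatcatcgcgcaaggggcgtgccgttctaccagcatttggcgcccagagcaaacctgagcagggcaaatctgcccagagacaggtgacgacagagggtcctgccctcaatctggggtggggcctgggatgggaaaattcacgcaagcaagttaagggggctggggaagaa
Tap1 was at 17.5 and 23.3 FPKM, a ratio of 1.33 (1.21 to 1.46). Psmb9 was at 27.2 and 34.6 FPKM, a ratio of 1.27 (1.09 to 1.47). Their ratios had overlapping intervals that lay above 1 in both cases. The neighbouring Psmb8, which replaces Psmb5, was at 36.5 and 48.0 FPKM, a ratio of 1.32 (1.19 to 1.46). Tap2, the other transporter subunit, was at 31.9 and 35.2 FPKM, a ratio of 1.10 (1.02 to 1.20). The Tap1 level relative to Tap2 was 0.549 (0.503 to 0.599) in the control and 0.661 (0.604 to 0.723) in the knockout, so the subunits did not keep their proportion.

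Tapbp (tapasin), which bridges the transporter and the empty class I chain, was at 75.0 and 85.4 FPKM, a ratio of 1.14 (1.08 to 1.20). Of its records, NM_009318 was at 43.3 and 54.0 FPKM, a ratio of 1.25 (1.17 to 1.33), and NM_001025313 at 31.7 and 31.4. The Tapbp difference thus lay in the first record, within what the authors' division of reads between transcripts allows. Nlrc5, the activator of class I genes, was at 3.32 and 3.31 FPKM, with an interval of 0.857 to 1.17.

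Constitutive proteasome genes were higher to a similar degree, which gives the immunoproteasome values a comparison within each library. Psmb5 was at 55.3 and 74.2 FPKM (1.34), Psmb6 at 51.0 and 67.7 (1.33) and Psmb7 at 52.6 and 72.1 (1.37). The level of Psmb8 relative to Psmb5 was 0.660 in the control and 0.648 in the knockout, and that of Psmb9 relative to Psmb6 was 0.532 and 0.511, both with overlapping intervals. Psmb10, the third inducible subunit, was at 35.5 and 41.5 FPKM, and its level relative to Psmb7 was 0.675 (0.611 to 0.746) and 0.576 (0.520 to 0.637). A list of 13 peptide supply and loading partners, all at 1 FPKM or more, had a median log2 difference of 0.31, with 12 above equality and 0 at least 1.5-fold higher or lower. Over the 12929 genes the median was 0.05, with 56.8% above equality, 9.41% higher and 4.63% lower by that fold. Psmb7 was the highest of the list and Tapbpl, a tapasin-like editor, the lowest at 14.2 and 11.8 FPKM. Its most abundant members were the loading chaperones Calr at 226 and 258 FPKM and Pdia3 at 175 and 221.

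The class II chains did not all differ in 1 direction. H2-Eb1 (chr17:34442812-34453619), the beta chain of I-E, was at 132 FPKM in control lung and 102 in knockout lung, 1.29-fold lower (1.23 to 1.37). H2-Aa (chr17:34419696-34424716), the alpha chain of I-A, was at 316 and 280 FPKM, 1.13-fold lower (1.08 to 1.18). H2-Ab1 (chr17:34400172-34406363), the I-A beta chain with which H2-Aa pairs, was at 195 and 209 FPKM, a ratio of 1.07 (1.02 to 1.12). The ratios of the I-A partners lay on opposite sides of 1, as they did under all 3 other scalings tried. The interval of H2-Ab1 held 1 under 2 of these, scaling to the median ratio (0.978 to 1.08) and to the upper quartile (0.983 to 1.08). The level of H2-Aa relative to H2-Ab1 was 1.62 (1.55 to 1.69) in the control and 1.34 (1.28 to 1.40) in the knockout. H2-Ab1 held 26.9% of the summed class II FPKM in the control and 31.2% in the knockout, and H2-Eb1 held 18.2% and 15.2%.

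The I-E alpha chain is not made in mice of the C57BL/6 haplotype, whose Ea gene lacks its promoter region. The tables list it as H2-Ea-ps, at 0 in both pools, where 3 reads would have given 0.233 FPKM in the control and 0.300 in the knockout. H2-Eb2, a second E beta gene, was at 0.683 and 0.629 FPKM and is the other class II gene under a mean of 1.

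The exchange chains lay well below the classical ones. H2-DMa was at 35.1 and 30.2 FPKM, 1.16-fold lower with an interval that ends next to equality (1.001 to 1.35). Its beta partners H2-DMb1 and H2-DMb2 were at 27.9 and 30.5 and at 10.8 and 10.4 FPKM, and the intervals of both held 1. H2-DMb1 shares 27.2% of its 50-base stretches with H2-DMb2, so they were also summed. H2-DMa relative to that sum was 0.906 (0.804 to 1.02) in the control and 0.739 (0.642 to 0.851) in the knockout, intervals that overlap without showing equal ratios. H2-Oa and H2-Ob, which form the H2-O brake on H2-DM in B cells, were at 2.56 and 2.39 FPKM and at 5.06 and 5.42 FPKM, and both intervals held 1. Over the 8 class II genes at 1 FPKM or more the median log2 difference was -0.06 (-0.37 to 0.12), with 3 above equality and 5 below. Summed class II FPKM was 725 in the control and 670 in the knockout, 1.08-fold lower (1.06 to 1.11).

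Cd74, the invariant chain, went the other way from the class II sum. It was at 660 FPKM in the control pool, rank 31 of all genes, and 757 in the knockout pool, rank 24, a ratio of 1.15 (1.12 to 1.18). Relative to summed class II FPKM it was at 0.911 (0.890 to 0.932) in the control and 1.13 (1.10 to 1.16) in the knockout. Against single chains the level of Cd74 was 2.09 and 2.71 times that of H2-Aa, 3.38 and 3.62 times that of H2-Ab1, and 5.01 and 7.44 times that of H2-Eb1. Every one of these was higher in the knockout pool, least for H2-Ab1, whose counting intervals (3.26 to 3.50 and 3.48 to 3.77) overlapped slightly. Its longer record, which adds a protease inhibitor domain, held 28.3% of Cd74 FPKM in the control and 28.1% in the knockout. Cd74 has known roles outside class II transport, as a receptor for the cytokine MIF. Ciita, the class II activator, was at 4.18 and 4.48 FPKM, with an interval of 0.913 to 1.25.

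**Figure D3:**
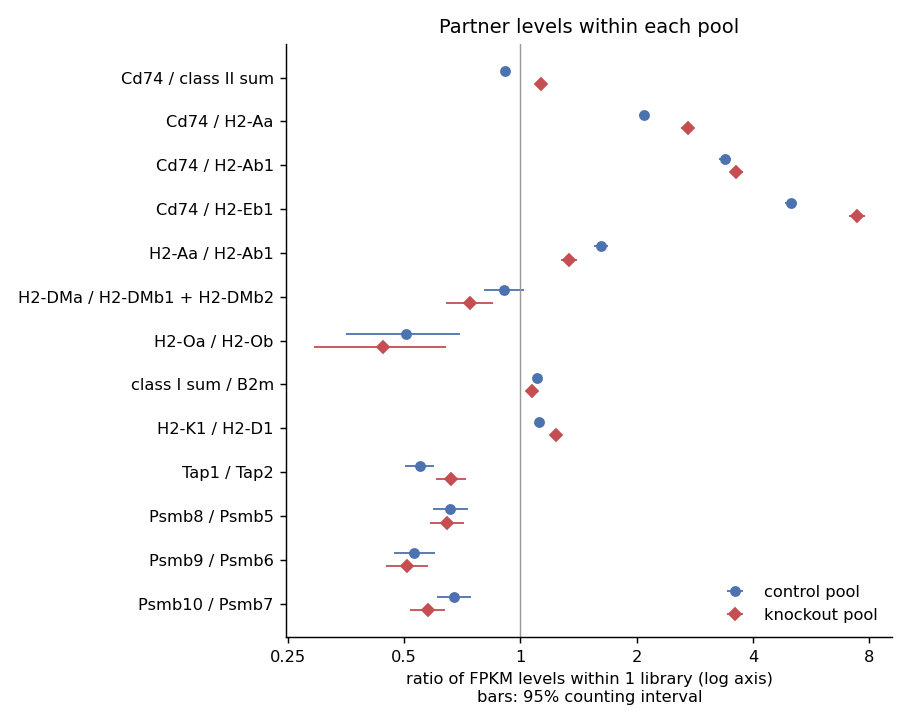
Ratio of the FPKM levels of paired or exchanged partners within each library, on a log axis, with a circle for the control pool, a diamond for the knockout pool and bars for the 95% counting interval. Cd74 relative to the class II sum is at 0.911 and 1.13 and H2-Aa relative to H2-Ab1 at 1.62 and 1.34, control first, and the bars of Psmb8 relative to Psmb5 (0.660 and 0.648) overlap.

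As a group, the 9 processing and regulator genes had a median log2 difference of 0.19 (-0.0008 to 0.39), with 8 above equality and 1, Nlrc5, below. None was at least 1.5-fold higher or lower, where 9.41% and 4.63% of the 12929 genes were. Of the 9 intervals 7 (77.8%) lay above 1 and 0 below, where 33.3% of the 12929 genes lay above and 21.8% below. Intervals narrow as reads increase, and B2m and Cd74 had about 17225 and 13891 reads in the control. The 12929 genes were not matched to the 9 for read number, so these shares are not like for like. Under 2 of the 3 other scalings the interval of Tap2 held 1, which left 6 above.

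Genes of class II endosomal processing and turnover were mostly higher in knockout lung. Of 9 such genes 3 (33.3%) were at least 1.5-fold higher in knockout lung and 0 lower, with a list median of 0.43. Of the 12929 genes, 9.41% were higher and 4.63% lower by that fold. Lgmn, an endosomal protease, was at 53.0 and 94.2 FPKM, a ratio of 1.78 (1.67 to 1.89). Ctsd, cathepsin D, was at 249 and 397 FPKM (1.59), and Ctss, the protease that trims Cd74 in antigen-presenting cells, at 92.3 and 144 (1.56). The lowest was the ubiquitin ligase gene March8 at 19.7 and 17.1 FPKM, and the most abundant was the cathepsin inhibitor Cst3 at 610 and 691. Cathepsins also serve lysosomes of cells without class II. Macrophage markers, given with the other cell types, were higher in the same pool, and their part in these values was not tested.

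Of 14 transcription factor genes that act on MHC promoters, 0 were at least 1.5-fold higher or lower, with a median of 0.12 and 9 above equality. Among the 12929 genes, 9.41% were higher and 4.63% lower by that fold, and 56.8% lay above equality. The highest was Sfpi1, which encodes the myeloid factor PU.1, at 14.3 and 20.5 FPKM, a ratio of 1.43 (1.23 to 1.68). The lowest was Irf1, an interferon response factor of class I genes, at 53.1 and 38.4 FPKM, 1.38-fold lower (1.28 to 1.49). Irf1 and Rela, an NF-kappa B subunit at 32.5 and 30.9 FPKM, were the most abundant.

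MHC genes are made by several lung cell types, and in whole lung fewer cells of a type and less RNA per cell cannot be told apart. Beside the counts in this paragraph and the next, 9.41% of the 12929 genes were at least 1.5-fold higher and 4.63% lower. Of 12 macrophage and monocyte markers 6 were at least 1.5-fold higher in knockout lung and 1 lower, and their sum was 212 FPKM in the control and 345 in the knockout. The scavenger receptor gene Marco was at 3.81 and 15.4 FPKM, Siglec5, the listed name of the alveolar macrophage lectin gene Siglecf, at 5.35 and 2.76, Ly6c2 at 44.6 and 60.7, and the complement gene C1qa at 27.3 and 52.7. The 10 B cell markers, 8 of them at 1 FPKM or more, summed to 41.2 and 53.6 FPKM, with all 8 above equality and 1 at least 1.5-fold higher. Fcer2a was the highest at 1.44 and 3.05 FPKM, and Cd79a, at 12.1 and 13.0, the lowest. Cd79a and Cd79b, at 11.0 and 16.0, were the most abundant. The part of these cells in the class II values was not tested.

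Dendritic cell markers were divided. Of 12, 8 were at 1 FPKM or more, with 4 above equality, 4 below, 1 at least 1.5-fold higher and 1 lower. All 12 together summed to 42.1 and 57.1 FPKM. Clec9a, a receptor of cross-presenting dendritic cells, was at 9.32 and 4.91 FPKM, 1.90-fold lower. Fscn1, an actin bundling gene that other cells also express, was at 4.45 and 18.8 FPKM, which makes up most of the difference in the sum, and Itgax was at 11.3 and 15.4. Alveolar type 2 markers summed to 20065 and 17313 FPKM, a sum made up mostly of Sftpc. Of the 9, 4 lay above equality and 5 below, with a median of -0.08 and intervals above 1 for 3 and below 1 for 5. Of the 9, 0 were at least 1.5-fold higher or lower, from Sftpa1 at 1207 and 808 FPKM to Lpcat1 at 92.7 and 118, with Sftpc and Sftpb, at 1826 and 1593, the most abundant. T and NK cell markers, 9 of 10 listed, summed to 41.7 and 30.7 FPKM, 1.36-fold lower (1.21 to 1.52), with 1 at least 1.5-fold lower, Gzma at 12.6 and 8.04. Ncr1 was the highest at 1.68 and 2.05, and Cd247 was at 7.81 and 5.80 and Nkg7 at 8.32 and 5.32. Endothelial markers, the cells targeted, summed to 1322 and 1311 FPKM with 2 of 10 at least 1.5-fold higher and 2 lower. Sox17 was at 16.9 and 33.0 FPKM, Cldn5 at 263 and 150 and Egfl7 at 216 and 282. No marker of the lists found in the tables was at 0 in both pools. The part of each cell type in the MHC values was not tested.

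**Figure D4:**
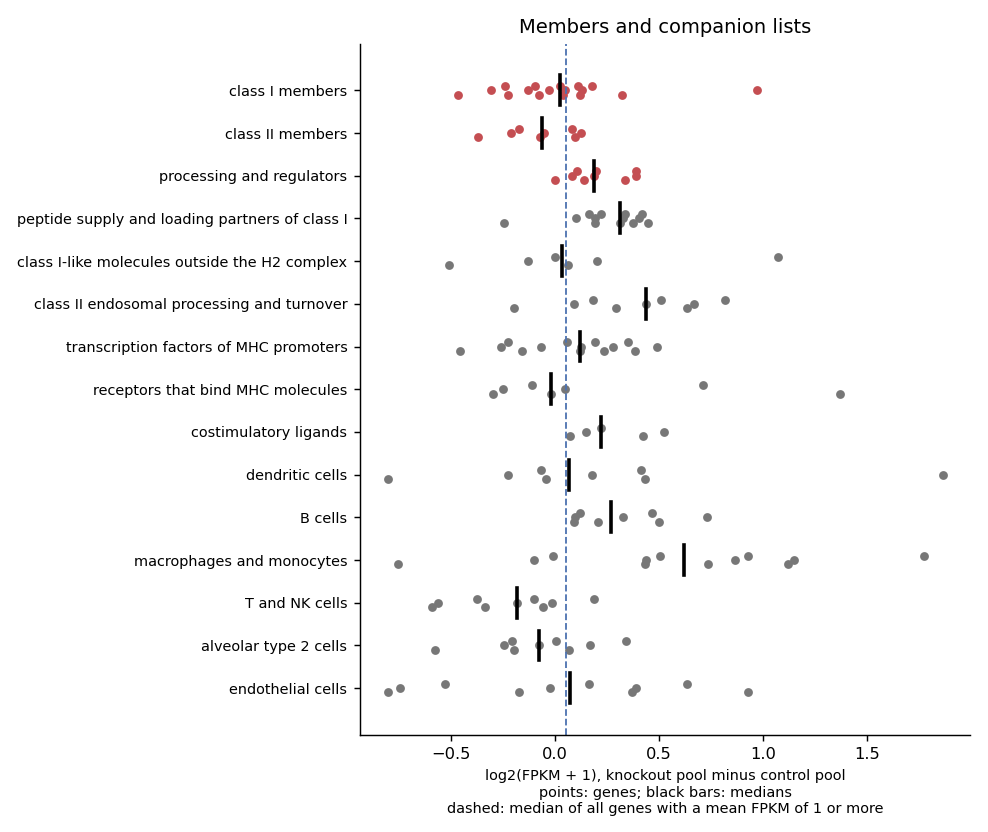
Difference in log2(FPKM + 1), knockout minus control pool, for genes at a mean of 1 FPKM or more, with members in red, companion and marker lists in grey, a black bar at each median and a dashed line at the median of the 12929 genes (0.05). Class I and class II members centre on 0.02 and -0.06, with the class I sign changing under other scalings, and the macrophage and monocyte markers centre on 0.62.

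The 2 genes with an H2- symbol outside antigen presentation are given for completeness and do not stand for their neighbourhood. The 89 other genes at a mean of 1 FPKM or more between the chromosome 17 members had a median log2 difference of 0.15. H2-Ke2, which encodes a prefoldin subunit, was at 22.9 and 22.1 FPKM, and H2-Ke6, which encodes the dehydrogenase Hsd17b8, at 22.6 and 21.2. Both intervals held 1.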

How the data were processed

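Whole-lung RNA of 2 genotypes, 1 pooled library each, was assigned to groups by the genotype in the labels. Per the file headers, the authors deposited FPKM and coverage (signal per transcript base) for 28107 RefSeq records per library. The submitters' processing notes name the build mm9 and, with no role, DESeq. The aligner and quantification tool were not given in the sources used here. FPKM divides by the library total, so abundant genes can shift all values, and reads of near-identical H2 genes can be divided differently in each library. Starts are counted from 1.

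FPKM was summed over the records of a symbol, giving 22072 genes, and differences were taken on log2(FPKM + 1). Counts of genes took those with a mean of at least 1 FPKM, at a fold of 1.5. Read numbers were approximated as coverage times length over the bases 1 read adds, 47.5 in the control and 47.6 in the knockout. The 95% interval of an FPKM ratio is an exact conditional Clopper-Pearson interval on these reads and covers counting error only. It was tried on simulated independent whole reads, the case that it assumes. That trial did not cover approximated read numbers or reads divided among transcripts or near-identical genes. No test was possible with 1 library per group.

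Members, lists and motifs were chosen with earlier results of these data known. Every member at a mean of 1 FPKM or more was named, with the highest below it and H2-Ea, and of each list the genes of highest and lowest ratio and the 2 of highest level. The lists cover class I peptide supply, class I-like molecules, class II endosomal processing and turnover and transcription factors. They also cover receptors of MHC molecules with relatives of such receptors, costimulatory ligands and markers of 6 cell types. Alternatives changed the pseudocount, floor, scaling, record choice and status. Python 3.11.15, pandas 2.3.3, numpy 2.4.6, scipy 1.17.1 and matplotlib 3.10.9 were used.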

Additional observations from a re-analysis of the deposited data

How the results depend on the processing

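With 1 library per genotype, no setting could show the spread between mice, and no replicate could be left out. No paired analysis was possible because each group holds 1 library. The class I count of 1 gene at least 1.5-fold different, H2-T9, was 0 with a floor of 5 FPKM, 0 when H2-T9 was combined with H2-T22 and H2-Q7 with H2-Q9, and 0 without members that share 25% or more of their sequence or have no matched sequence, the last pair chosen after seeing the data. The summed class I ratio of 1.04 was 0.999 with scaling to the median ratio and 1.004 with scaling to the upper quartile, and the summed class II ratio of 0.924 was 0.885 and 0.889. These scalings lowered the median of the 12929 genes by 0.05, and under both the intervals of H2-Ab1 and Tap2 held 1 and that of H2-Q8 lay below 1, while those of the other members kept their side. The class I median of 0.02 was also -0.004 with status OK records alone and -0.03 with records combined and without members of shared sequence. The class II median stayed between -0.11 and -0.05 and the processing and regulator median between 0.12 and 0.20 under all 9 alternatives. H2-D1 had ratios of 0.983 and 0.988 under the 2 scalings, while H2-Eb1 stayed between 0.740 and 0.765, H2-Aa between 0.848 and 0.876, H2-Ab1 between 1.03 and 1.06 and Cd74 between 1.10 and 1.14 under the 3 scalings. Depth limits genes such as H2-Oa and H2-Q2, whose intervals span more than 1.5-fold.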

Other observations

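Other genes lie between the chromosome 17 members without belonging to them. Of 147 such genes 89 were at a mean of 1 FPKM or more, with a median log2 difference of 0.15. At least 1.5-fold higher in knockout lung were 15 of the 89 (16.9%), and 4 (4.49%) were lower. Among the 12929 genes these shares were 9.41% and 4.63%, so the lower share lay near the background. The complement genes of the MHC were among the 15: Cfb was at 12.0 FPKM in the control and 39.1 in the knockout, C4b at 44.2 and 87.8, and C2 at 13.0 and 23.4. Tubb5, a tubulin gene, was at 105 and 244 FPKM and Tcf19 at 3.09 and 20.4. The heat shock genes Hspa1a and Hspa1b, at 15.8 and 7.80 FPKM and at 23.2 and 9.52 FPKM, were among the 4 lower. These genes were chosen after their values were seen.

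A list of 10 genes for receptors of MHC molecules and relatives of such receptors had 7 at 1 FPKM or more, with a median of -0.02. Whether each of them, Lilrb4 included, binds a mouse MHC molecule was not tested. Of these 7, 2 (28.6%) were at least 1.5-fold higher and 0 lower, where 9.41% and 4.63% of the 12929 genes were. The inhibitory myeloid receptor genes Lilrb4 and Lilrb3 were at 8.68 and 24.0 FPKM and at 7.07 and 12.2 FPKM, and Klrd1, the Cd94 partner of the receptors for Qa-1, was the lowest at 4.60 and 3.55. Class I-like genes outside the complex had a median of 0.03, with 6 of 7 at 1 FPKM or more. Procr, the endothelial protein C receptor gene, was the highest of them at 2.67 and 6.71 FPKM, and Azgp1 the lowest at 2.49 and 1.45, while Fcgrt was at 41.3 and 43.1 and Hfe at 14.3 and 13.0. Of 8 costimulatory ligand genes 5 were at 1 FPKM or more, with a median of 0.22 and 0 at least 1.5-fold higher or lower on the log2(FPKM + 1) scale. Cd40 was at 6.75 and 10.1 FPKM, Icosl at 8.80 and 10.4 and Cd274 at 5.92 and 6.28.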
